A study of Mus musculus with 17 samples.

Results

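Cytosolic ribosomal protein genes encode the proteins of the ribosomes that translate cytosolic mRNA. They were taken here by symbol: Rpl or Rps followed by a number, with an optional a, x or l and a further digit, and the stalk genes Rplp0, Rplp1 and Rplp2. Symbols ending in -ps (pseudogenes) and Rpsa were left out. The rule found 87 of 33840 symbols in the intestinal tables and 84 of 24594 identifiers in the tables labelled liver, 88 genes in all with 83 in both. Rpl6l, Rps12l1, Rps3a2 and Rps3a3 were found in the intestinal tables alone, and Rpl39l in the tables labelled liver alone. Among the 88, GENCODE annotates Rpl32l, Rpl6l, Rps12l1, Rps3a2, Rps3a3 and Rps4l as pseudogenes, although their symbols carry no -ps.

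The data are bulk RNA-seq of 17 samples from wild-type mice. The 4 small-intestinal groups had 2 samples each: crypts after hepatectomy (surgical removal of liver tissue), crypts after a sham operation, IEC after hepatectomy and IEC after a sham operation. The 3 groups labelled liver had 3 samples each, at day 0, 10 and 20 of DSS, an agent commonly used to injure the colon. No source used here states the strain, the age, the DSS dose or whether the samples of a group came from separate mice. The p-values therefore set group differences against the spread between these samples only, and that spread may be technical.

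Total counts were 26609686 to 43580020 per library in the intestine and 12742629 to 42669857 in the libraries labelled liver. The content of 6 libraries went against the liver label. The 10 hepatocyte markers summed to 658 to 893 CPM (counts per 1e+06 TMM-scaled counts) at day 0 and 898 to 2663 CPM at day 10, against 121500 to 125500 CPM at day 20. Of the same libraries, 7 Paneth cell markers summed to 33540 to 45790, 6801 to 100300 and 410 to 545 CPM at day 0, 10 and 20. Gene ranks of the day 0 and day 10 libraries correlated with those of sham crypts at Spearman 0.896 to 0.932 over 13894 genes, and those of day 20 at 0.642 to 0.648. The day 0 and 10 libraries are therefore called "labelled liver" throughout, and in every day 20 comparison the time and the tissue content of the libraries cannot be told apart. In the intestine, libraries from hepatectomy mice detected 29786 to 30461 genes and those from sham mice 24420 to 26186. Whether that difference has a part in the hepatectomy results was not tested.

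A ribosome carries most of its proteins in a single copy, so their genes are usually expressed in step. Their mRNAs start with a pyrimidine tract through which the kinase mTORC1 and the binding protein LARP1 control translation, and the transcription factor MYC raises ribosome production in dividing cells such as crypt progenitors. The genome also holds many processed copies of these short, abundant mRNAs, which share reads with the parent gene.

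Near-identical copies were the first limit on single members. Of the 88 genes, 85 shared at least 1 stretch of 50 transcript bases with another annotated gene, 52 shared 50% or more of their stretches, 6 shared 90% or more, and the median was 61.7%. The other 3 shared none. No source used here states how the authors' counting divided shared reads, and 23 members also overlap an exon of another gene, so the split between a member and its copies is uncertain. The copies of Rps3a1, which encodes a protein of the small subunit, show how little separates such genes. The 3 stretches below are from GENCODE vM21 transcripts (GRCm38) and were picked as the stretch of Rps3a1 coding sequence with most differences to Rps3a3. Capitals mark bases that differ from Rps3a1. Rps3a1 is on chr3:86141333-86141392 (minus strand), Rps3a2 on chr14:88123549-88123608 (minus strand) and Rps3a3 on chr13:108670803-108670862 (plus strand).
Rps3a1: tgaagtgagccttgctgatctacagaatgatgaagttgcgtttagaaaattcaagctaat
Rps3a2: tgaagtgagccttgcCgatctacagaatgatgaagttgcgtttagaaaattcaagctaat
Rps3a3: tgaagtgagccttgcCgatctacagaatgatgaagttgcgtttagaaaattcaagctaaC
Over the whole coding sequence of 792 bases, Rps3a2 differed from Rps3a1 at 4 bases and Rps3a3 at 9. By contrast, Rps27l and its paralog Rps27 have more differences: they differed at 54 of 252 aligned coding bases, and 13.7% of the stretches of Rps27l are shared with another gene. The stretches shown are on chr3:90213242-90213301 (minus strand) for Rps27 and chr9:66946831-66946890 (plus strand) for Rps27l, again the most different within an exon, with capitals where Rps27l differs.
Rps27: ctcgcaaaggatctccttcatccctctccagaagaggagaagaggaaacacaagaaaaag
Rps27l: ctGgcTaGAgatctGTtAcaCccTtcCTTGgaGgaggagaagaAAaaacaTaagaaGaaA

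Members with more shared sequence had lower median levels, with a wider gap in the libraries labelled liver at day 0 than in sham crypts. Among protein-coding members in sham crypts, the 48 that share 50% or more of their stretches had a median of 249 CPM per kilobase of transcript, and the 33 that share less had a median of 317. In the libraries labelled liver at day 0 the medians were 178 CPM per kilobase for 48 members with more sharing and 405 for 34 with less. Rpl26, a large-subunit protein gene, ranked 20 of 87 per kilobase in sham crypts and 81 of 84 at day 0, where it had 1.72 to 2.55 CPM. Rps27 ranked 19 of 87 in sham crypts and 80 of 84 at day 0. The 2 kinds of table were counted differently and were never tested against each other.

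**Figure D1:**
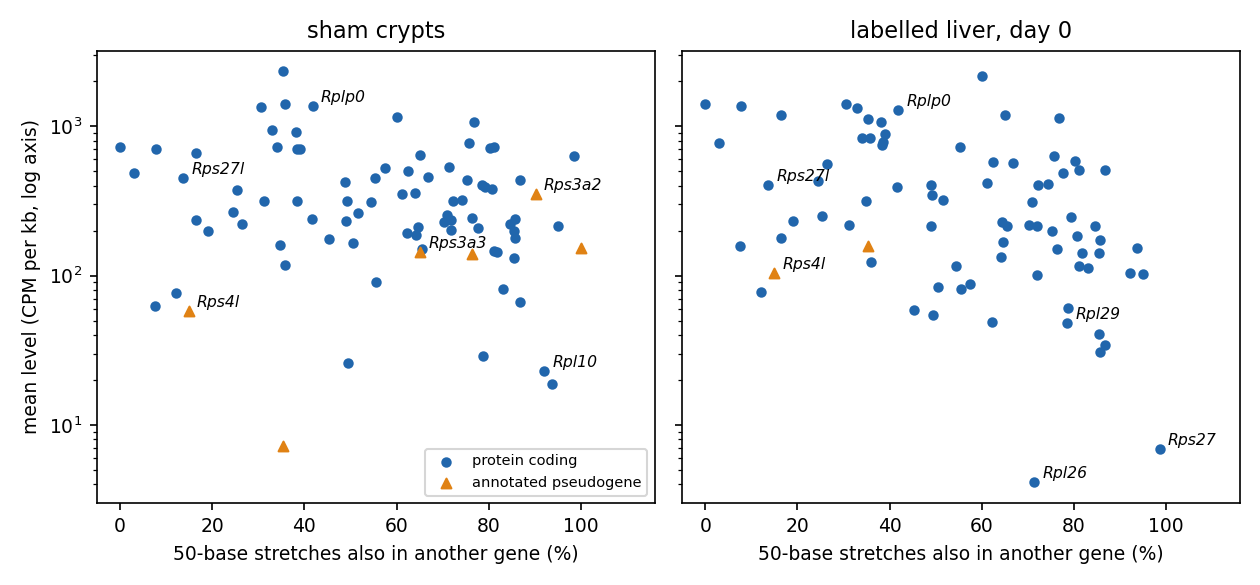
Mean level of each member in CPM per kilobase of transcript (log axis) against the percent of its 50-base stretches that stand in another gene, in sham crypts (n = 2) and in the libraries labelled liver at day 0 (n = 3). Points are members, triangles those annotated as pseudogenes, and members at or under 0.5 CPM per kilobase are left out. Rps27 and Rpl26 lie far below the rest in the tables labelled liver.

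Ribosomal protein genes took a larger share of all gene counts in crypts than in IEC. The share was 2.72% and 2.36% in the hepatectomy crypts against 1.47% and 1.60% in the hepatectomy IEC, and 3.16% and 3.04% in the sham crypts against 2.06% and 2.01% in the sham IEC. In both operations the crypt libraries lay above the IEC libraries. After hepatectomy the share was below that of sham in either fraction, with no overlap of libraries. Among the libraries labelled liver it was 3.56%, 3.09% and 3.12% at day 0, 2.87%, 2.94% and 2.90% at day 10, and 0.606%, 0.598% and 0.582% at day 20. The day 20 libraries stood far below the others. In a bulk sample, fewer cells of a kind rich in ribosomal protein mRNA and less of that mRNA per cell cannot be told apart. Symbols ending in -ps held a further 24.9 to 28.2% of the family's counts in the intestine. That part was 27.7% and 27.98% in the hepatectomy IEC against 25.62% and 24.94% in the sham IEC. In crypts it was 27.95% and 28.24% after hepatectomy against 25.15% and 26.79% in sham. The hepatectomy libraries thus lay above the sham libraries in either fraction. The intestinal tables hold 223 such symbols and the tables labelled liver 7, so sums with -ps copies add little in the latter.

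**Figure D2:**
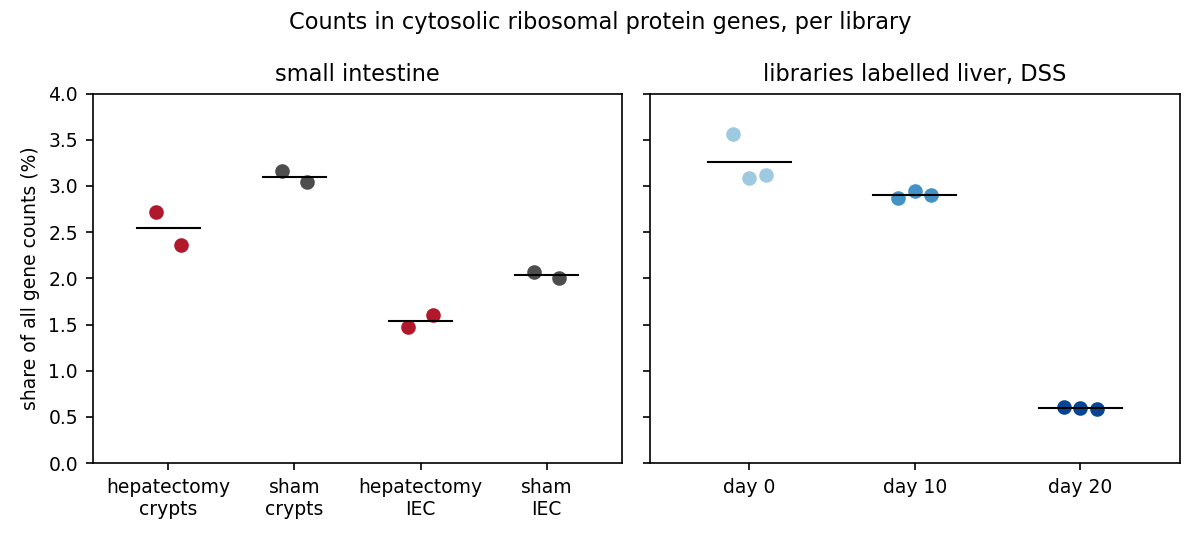
Share of all gene counts (%) that fell in cytosolic ribosomal protein genes, per library (points) with the group mean (bars), for the 4 intestinal groups and the 3 days of the libraries labelled liver. Day 20 libraries lie at 0.582 to 0.606%, below all others.

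The share depends on the few genes that fill the rest of a library, so each member was also tested by itself after TMM scaling, with edgeR's quasi-likelihood test across all genes and a call at a Benjamini-Hochberg adjusted p under 0.05. In the intestine 85 of the 87 members passed the filter on low counts among 18207 genes, all but Rpl10l and Rpl3l, which had at most 2 counts in any library. In the tables labelled liver 83 of the 84 passed among 16694, all but Rpl39l. Medians and counts below cover the members that passed.

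Crypts held more ribosomal protein mRNA than IEC, gene by gene. After hepatectomy 83 members were higher in crypts, 1 was lower and 1 did not pass, where 26.3% of all genes tested were higher and 25.6% lower. The members' median log2 fold change was 0.51, against 0.01 for all genes, and 24 members rose and 0 fell by 1.5-fold or more, where 12.3% and 16.3% of all genes did. In sham mice 59 members were higher, 1 was lower and 25 did not pass, where 19.3% of all genes were higher and 19.3% lower, and the median was 0.27 against 0.02. In the sham crypts 1 member was higher and 1 lower by 1.5-fold or more, where 5.73% and 10.6% of all genes were. The 59 became 33 to 44 when 1 of the 4 sham libraries was left out (33 without sham crypt replicate 2, 35 without sham IEC replicate 2, 39 without sham IEC replicate 1, 44 without sham crypt replicate 1). Large-subunit and small-subunit members moved alike, with medians of 0.50 and 0.54 after hepatectomy and of 0.27 and 0.26 in sham mice. With total counts in place of TMM the median of all genes moved to 0.26 after hepatectomy and 0.37 in sham mice. The members still stood above it by 0.50 and 0.25.

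Rps2 (chromosome 17, 24718116 to 24721929), a protein at the mRNA entry side of the small subunit, was among the largest rises in both. It had 955 and 896 CPM in the hepatectomy crypts against 523 and 582 CPM in the hepatectomy IEC, and 1035 and 1022 CPM in the sham crypts against 772 and 757 CPM in the sham IEC. The crypt libraries were above the IEC libraries in each operation, with log2 fold changes of 0.74 ± 0.053 (SE, adjusted p = 1.6e-07) and 0.43 ± 0.052 (adjusted p = 4.2e-05). Reads of Rps2 may include those of Snhg9, which overlaps its exons.

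Rpl11 and Rpl5 encode proteins that, with 5S rRNA, bind the p53 regulator MDM2 when ribosome assembly fails. Rpl11 had 160 and 139 CPM in the hepatectomy crypts against 80.8 and 100.4 CPM in the hepatectomy IEC (0.72 ± 0.089, adjusted p = 2.2e-05). Rpl5 had 39.0 and 38.0 CPM in the sham crypts against 25.5 and 28.0 CPM in the sham IEC (0.52 ± 0.067, adjusted p = 6e-05). Neither gene had overlapping libraries. Rpl5 shares 93.8% of its stretches with other genes and Rpl11 62.2%. Per kilobase Rpl5 ranked 84 of 87 in the sham crypts and 83 in the sham IEC, so its level and change are uncertain. The stalk proteins recruit elongation factors. Rplp2 averaged 230 ± 29.2 CPM in the hepatectomy crypts and 141 ± 15.7 CPM in the hepatectomy IEC (SD, n = 2 each; 0.70 ± 0.086, adjusted p = 2.2e-05). Rplp0, the stalk base, was also higher in crypts, by 0.46 ± 0.047 after hepatectomy (adjusted p = 4.5e-06) and by 0.32 ± 0.047 in sham mice (adjusted p = 0.00018).

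The remaining large rises after hepatectomy were Rpl10 (0.88 ± 0.10, adjusted p = 1.5e-05), whose product joins the large subunit late in assembly, Rps20 (0.72 ± 0.081, adjusted p = 1e-05) and Rps26 (0.69 ± 0.066, adjusted p = 2.3e-06), which lies at the mRNA exit channel. Rpl10 shares 92.1% of its stretches with other genes, Rps20 7.57% and Rps26 38.3%. Per kilobase Rpl10 ranked 82 of 87 in both the hepatectomy crypts and the hepatectomy IEC, so its level and change are uncertain.

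Rps4l and Rps27l did not follow the family. Rps4l (chromosome 6, 148354656 to 148355598), annotated as a transcribed pseudogene of Rps4x, had 67.0 and 63.2 CPM in the hepatectomy crypts against 73.7 and 79.3 CPM in the hepatectomy IEC, and 56.0 and 53.0 CPM in the sham crypts against 93.8 and 91.9 CPM in the sham IEC. It was lower in crypts in both, without overlap: -0.77 ± 0.059 in sham mice (adjusted p = 6e-07) and -0.23 ± 0.059 after hepatectomy (adjusted p = 0.005). The call after hepatectomy was lost when hepatectomy crypt replicate 2 (-0.18, adjusted p = 0.06) or hepatectomy IEC replicate 2 (-0.18, adjusted p = 0.053) was left out, and with total counts that value turned to 0.02. Rps27l, a paralog of Rps27 that p53 can induce in human cells, had 248 and 235 CPM in the hepatectomy crypts against 247 and 253 CPM in the hepatectomy IEC. Its libraries overlapped, and its fold change of -0.05 ± 0.044 did not pass (adjusted p = 0.36). In sham mice it had 260 and 259 CPM in crypts and 246 and 252 CPM in IEC (0.06 ± 0.044, adjusted p = 0.34).

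After hepatectomy most members fell in IEC and few changed in crypts. In IEC 51 members fell, none rose and 34 did not pass, where 18.3% of all genes fell and 19.5% rose. The 51 became 26 without hepatectomy IEC replicate 1 and 31 without sham IEC replicate 1. The median was -0.24, against 0.02 for all genes. By 1.5-fold or more 0 members rose and 0 fell, where 10.2% and 6.34% of all genes did. In crypts 7 rose, 6 fell and 72 did not pass, where 19.2% of all genes rose and 18.3% fell, and the median was 0.00 against 0.01. By 1.5-fold or more 1 rose (Rps12l1) and 1 fell (Rps3a3), where 9.46% and 6% of all genes did. The crypt counts rested on single libraries: 4 rose and 18 fell without hepatectomy crypt replicate 1, 17 rose and 3 fell without replicate 2, and 3 fell without sham crypt replicate 1. They also turned on scaling. With total counts in place of TMM, 0 members rose and 68 fell in crypts and 82 fell in IEC, as the median of all genes moved to -0.31 and -0.19. Relative to that median the members stood at -0.01 in crypts and -0.27 in IEC under either scaling.

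The 6 largest falls in IEC were Rps13, Rpl27, Rpl28, Rplp2, Rpl11 and Rps2, by 0.47 to 0.56 on the log2 scale, which is less than 1.5-fold. Rpl27 had 115 and 126 CPM in the hepatectomy IEC against 168 and 183 CPM in the sham IEC. Rplp2 had 130 and 153 CPM in the hepatectomy IEC against 207 and 193 CPM in the sham IEC. The libraries of the operations did not overlap in either gene, with log2 fold changes of -0.55 ± 0.080 (adjusted p = 0.00017) and -0.50 ± 0.086 (adjusted p = 0.00058). Rps13, with 26.9 and 32.2 CPM in the hepatectomy IEC against 39.8 and 47.0 CPM in the sham IEC, lost its call when summed with its -ps copies (-0.19, adjusted p = 0.1). Rpl38, which in mice affects the translation of Hox mRNAs, was at 103 and 117 CPM in the hepatectomy IEC against 140 and 143 CPM in the sham IEC (-0.36 ± 0.073, adjusted p = 0.0019). Summing its -ps copies ended that call too (-0.17, adjusted p = 0.056).

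In crypts the largest rises after hepatectomy were Rps12l1 (0.60 ± 0.13, adjusted p = 0.0035), all of whose stretches are shared with other genes, and Rps3a1 (0.47 ± 0.067, adjusted p = 0.00018). Under total counts neither passed (0.28 and 0.15, adjusted p = 0.062 and 0.099). The near-identical copy of Rps3a1, Rps3a3, fell in the same comparison. Rpl32, Rpl29 and Rps4l rose by 0.26 to 0.29 and all 3 turned negative under total counts, from -0.07 to -0.04. Without hepatectomy crypt replicate 1 the call of Rpl29 (0.17, adjusted p = 0.09) was lost, and without sham crypt replicate 2 that of Rps4l (0.22, adjusted p = 0.056). Rps7 had 158 and 142 CPM in the hepatectomy crypts against 185 and 191 CPM in the sham crypts (-0.33 ± 0.055, adjusted p = 0.00061). Summed with its -ps copies it rose instead (0.21, adjusted p = 0.01). Rpl7l1, a paralog of Rpl7 that acts in ribosome assembly, had 81.9 and 86.8 CPM in the hepatectomy crypts against 101 and 99.4 CPM in the sham crypts (-0.25 ± 0.056, adjusted p = 0.0039). Its libraries did not overlap. Rpl27, Rpl23a and Rps2 fell by 0.15 to 0.26, and each lost its call without hepatectomy crypt replicate 2 (adjusted p = 0.18, 0.19 and 0.19) and without sham crypt replicate 1 (adjusted p = 0.15, 0.22 and 0.13). The call of Rps2 was also lost without sham crypt replicate 2 (adjusted p = 0.096).

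The largest change of a member in the intestinal tables belonged to a copy. Rps3a3 had 9.70 and 8.92 CPM in the hepatectomy crypts against 103 and 125 CPM in the sham crypts, and 6.37 and 6.29 CPM in the hepatectomy IEC against 8.36 and 8.79 CPM in the sham IEC. The sham crypts stood apart from the other 3 groups. The log2 fold change was -3.62 ± 0.098 for hepatectomy against sham in crypts (adjusted p = 2.5e-10) and 3.74 ± 0.10 for crypts against IEC in sham mice (adjusted p = 4.2e-11). Rps3a2 had 268 and 249 CPM in the hepatectomy crypts against 271 and 287 CPM in the sham crypts, with no call (-0.11 ± 0.062, adjusted p = 0.18). Rps3a1 had 364 and 319 CPM in the hepatectomy crypts against 240 and 254 CPM in the sham crypts. Between sham and hepatectomy crypts, Rps3a1 and Rps3a3 thus moved in opposite directions. Given the 9 differing bases of Rps3a3, whether the sham crypt counts were read from that locus was not tested. Whether counts shifted between the copies was not tested either, so the rise of Rps3a1 is uncertain.

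**Figure D3:**
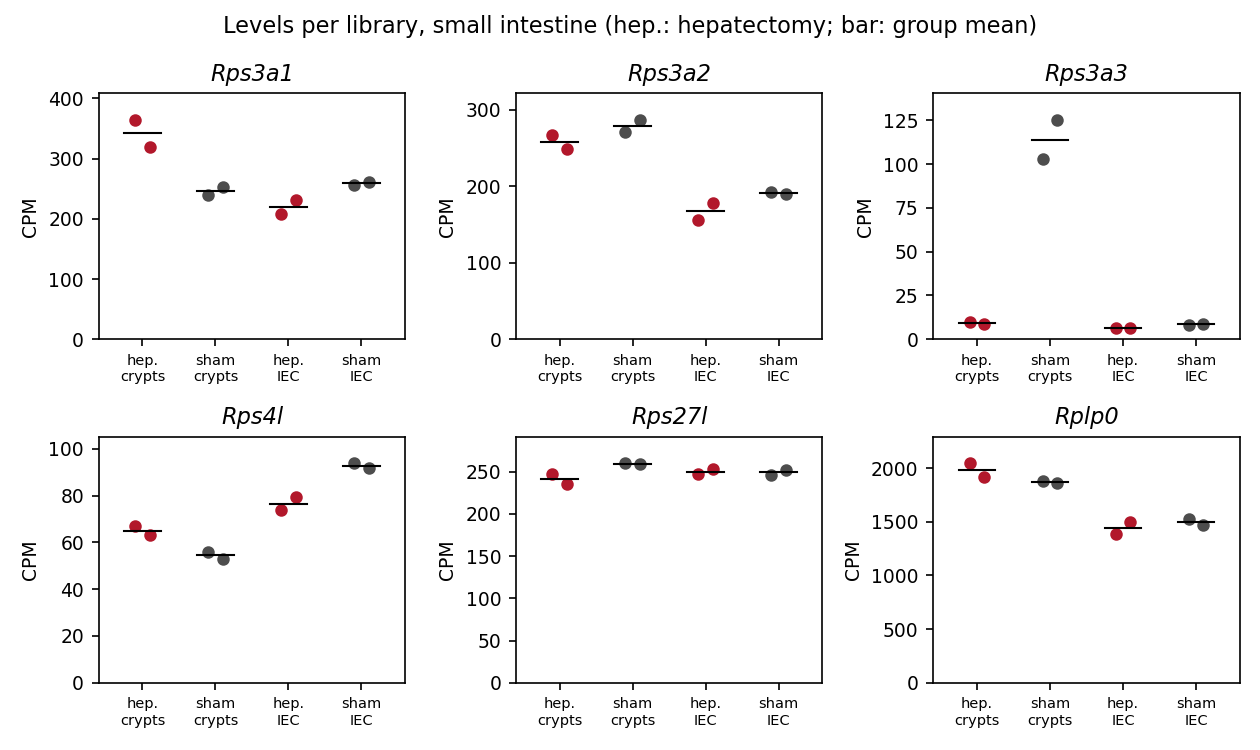
CPM after TMM scaling in each intestinal library (points; hepatectomy red, sham grey) with the group mean (bars) for Rps3a1 and its copies Rps3a2 and Rps3a3, for Rps4l, Rps27l and Rplp0. Rps3a3 is high in the sham crypts alone, Rps4l is lower in crypts than in IEC, and Rps27l lies between 235 and 260 CPM in every library.

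The hepatectomy effect itself was compared between the fractions, as the signed log2 fold change in crypts minus that in IEC. Larger and smaller refer to this sign, not to the size of a change. The signed effect was larger in crypts than in IEC for 20 members, smaller for 1 and without a call for 64. Of all genes, 9.15% were larger and 10.1% smaller. The members' median difference was 0.26 against 0.00 for all genes. By 1.5-fold or more 1 member was larger and 1 smaller, where 4.43% and 4.42% of all genes were. The count of 20 depended on single libraries: leaving out 1 gave 9 to 51, with 9 without hepatectomy IEC replicate 1, 11 without hepatectomy crypt replicate 1, 11 without sham IEC replicate 2, 12 without sham IEC replicate 1, 37 without hepatectomy IEC replicate 2 and 51 without hepatectomy crypt replicate 2. With total counts it was 5. Rps3a1 (0.71 ± 0.095, adjusted p = 0.00031), Rps4l (0.54 ± 0.083, adjusted p = 9e-04) and Rpl29 (0.47 ± 0.098, adjusted p = 0.0053) had the largest differences. The member with a negative difference was Rps3a3 (-3.18 ± 0.16, adjusted p = 1.9e-07). It fell more in crypts than in IEC, with log2 fold changes of -3.62 and -0.44. Rps3a1 and Rps3a3, the largest differences in either direction, are near-identical copies, and whether counts shifted between them was not tested.

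Other genes of the translation machinery were read in the same contrasts, from lists named in the processing account, beside the shares of all genes. Of all genes, 26.3% were higher in crypts than in IEC after hepatectomy and 19.3% in sham mice. After hepatectomy 19.2% of all genes rose and 18.3% fell in crypts, and 19.5% rose and 18.3% fell in IEC. Of 44 genes of ribosome biogenesis and RNA polymerase I, 42 were higher in crypts than in IEC after hepatectomy and 41 in sham mice, with medians of 0.63 and 0.43. After hepatectomy 37 of the 44 were lower than in sham in IEC and 23 in crypts, and none were higher in either, with medians of -0.41 and -0.21. In crypts, assembly genes such as Noc4l (-0.54 ± 0.063, adjusted p = 3.9e-05) and Heatr1 (-0.65 ± 0.080, adjusted p = 6.6e-05) fell where the ribosomal protein genes had a median of 0.00. Ncl, the nucleolar protein nucleolin, fell by 0.63 ± 0.044 in IEC (adjusted p = 3e-07). Of 78 mitochondrial ribosomal protein genes, 34 fell and none rose in crypts, and 36 fell and 2 rose in IEC. Among 37 translation factors, 7 rose and 12 fell in crypts (18.9% and 32.4%), and 2 rose and 23 fell in IEC (5.41% and 62.2%). The share that rose in crypts was near that of all genes. Pabpc1, the poly(A)-binding protein, rose by 0.40 ± 0.040 in crypts (adjusted p = 1e-05) and fell by 0.41 ± 0.041 in IEC (adjusted p = 6.4e-06). The 6 ribosomal protein genes that the symbol rule misses gave 3 rises and no fall in crypts, and 2 rises and 4 falls in IEC. Of 9 host genes of snoRNAs, 4 rose and none fell in crypts, and 2 fell and none rose in IEC. Of 20 regulators, 2 rose and 5 fell in crypts, and 4 rose and 6 fell in IEC. Mxd1, a MYC antagonist, rose by 0.73 ± 0.053 in crypts (adjusted p = 6e-07) and 0.84 ± 0.052 in IEC (adjusted p = 1e-07), and Trp53 fell by 0.39 ± 0.052 and 0.60 ± 0.054 (adjusted p = 0.00011 and 2.9e-06).

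Summed levels of cell type markers moved with these contrasts as well. The 10 enterocyte markers, absorptive cell genes, summed to 11530 to 11630 CPM in the hepatectomy crypts against 4549 to 4604 CPM in the sham crypts, and to 72620 to 75770 CPM in the hepatectomy IEC against 28620 to 29090 CPM in the sham IEC. The 7 cycling markers summed to 462 to 474 CPM in the hepatectomy crypts against 689 to 695 CPM in the sham crypts, and to 245 to 249 CPM in the hepatectomy IEC against 464 to 465 CPM in the sham IEC. The 7 crypt stem cell markers summed to 1175 to 1185 CPM in the hepatectomy crypts against 1944 to 1994 CPM in the sham crypts, and to 826 to 842 CPM in the hepatectomy IEC against 1688 to 1689 CPM in the sham IEC. The cycling and crypt stem cell sums were higher in crypts than in IEC under both operations, and the enterocyte sums were higher in IEC. The 7 Paneth cell markers, of a secretory cell at the crypt base, summed to 662.7 to 662.8 CPM in the hepatectomy crypts against 1315 to 1438 CPM in the sham crypts, and to 2620 to 2670 CPM in the hepatectomy IEC against 3768 to 3985 CPM in the sham IEC. They were higher in IEC than in crypts under both operations, which goes against the names of the fractions. The 7 goblet cell markers summed to 2691 to 2767 CPM in the hepatectomy crypts against 6228 to 6253 CPM in the sham crypts, and to 8730 to 8988 CPM in the hepatectomy IEC against 7339 to 7636 CPM in the sham IEC. The 10 lymphocyte markers summed to 43.1 to 48.1 CPM in the hepatectomy crypts against 142 to 143 CPM in the sham crypts, and to 167 to 174 CPM in the hepatectomy IEC against 427 to 435 CPM in the sham IEC. The 5 erythroid markers summed to 11.96 to 14.79 CPM in the hepatectomy crypts against 31.52 to 33.24 CPM in the sham crypts. In IEC they summed to 316.3 to 330.3 CPM after hepatectomy against 258.4 to 263.9 CPM in sham. The part of these lists in the ribosomal protein results was not tested.

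Among the libraries labelled liver, few members had a call at day 10 against day 0. Of 83 members, 2 rose, 4 fell and 77 did not pass, where 24.7% of all genes rose and 18.8% fell. The median was -0.12, against 0.10 for all genes. Their share of counts was also lower at day 10 (2.87 to 2.94%) than at day 0 (3.09 to 3.56%), without overlap. Changes of 1.5-fold or more were 2 rises and 2 falls, where 23.8% and 11.7% of all genes did. Without day 10 replicate 3, the library with the lowest total count, 4 members rose and the median was 0.03. Leaving out any of the day 0 libraries or day 10 replicate 2 left 1 rise, and the falls numbered 2 without day 0 replicate 1, 8 without day 0 replicate 3 and 9 without day 10 replicate 1.

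Rpl29 (chromosome 9, 106429454 to 106431568), a small basic protein of the large subunit, rose at day 10. It had 33.7, 26.2 and 24.1 CPM at day 0, 97.2, 119 and 72.4 CPM at day 10, and 70.3, 73.1 and 66.2 CPM at day 20. All libraries of days 10 and 20 were above those of day 0. The log2 fold change was 1.78 ± 0.19 at day 10 (adjusted p = 0.00011) and 1.32 ± 0.19 at day 20 (adjusted p = 3.4e-05), both against day 0. Against day 10 it was lower at day 20 (-0.46 ± 0.19, adjusted p = 0.04), a call lost in 5 of the 6 fits that leave out 1 library of either day (adjusted p up to 0.23) and kept without day 10 replicate 3. Of its stretches, 78.5% are shared with other genes, among them 7 that share 50% or more. The other rise was Rpl3l, a muscle paralog of Rpl3, at 0.303, 0.448 and 0.434 CPM on day 10 and 0.049, 0.044 and 0.10 CPM on day 0, which rests on 2 to 11 counts per library.

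The falls at day 10 were Rpl7l1, Rps4l, Rpl27 and Rps15a. Rpl7l1 had 129, 88.7 and 86.2 CPM at day 0, 64.4, 58.5 and 60.8 CPM at day 10 and 66.4, 67.8 and 71.7 CPM at day 20. Days 10 and 20 lay below day 0 (-0.73 ± 0.16 at day 10, adjusted p = 0.0065). Rps4l was at -0.59 ± 0.16 (adjusted p = 0.012). Without day 0 replicate 1 the calls of Rpl27 (-0.47, adjusted p = 0.055) and Rps15a (-0.45, adjusted p = 0.065) were lost, and without day 10 replicate 3 that of Rps15a (-0.37, adjusted p = 0.067).

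At day 20 nearly the whole family was lower. Against day 0, 75 members fell, 2 rose and 6 did not pass, where 38.1% of all genes fell and 33.3% rose, and the median was -1.53 against -0.16. Falls of 1.5-fold or more numbered 74 and such rises 2, where 35.3% and 31.1% of all genes did. Against day 10, 77 fell, 1 rose and 5 did not pass, where 40.3% of all genes fell and 30.8% rose, and the median was -1.38 against -0.21. By 1.5-fold or more 76 fell and 1 rose, where 37.6% and 28.1% of all genes did. These comparisons share the day 20 libraries. With total counts in place of TMM the median of all genes moved to -1.07 against day 0 and -1.17 against day 10. Relative to it the members stood at -1.36 and -1.12 with total counts, and at -1.37 and -1.17 with TMM. Large and small subunits did not separate, with medians of -1.53 and -1.52 against day 0.

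**Figure D4:**
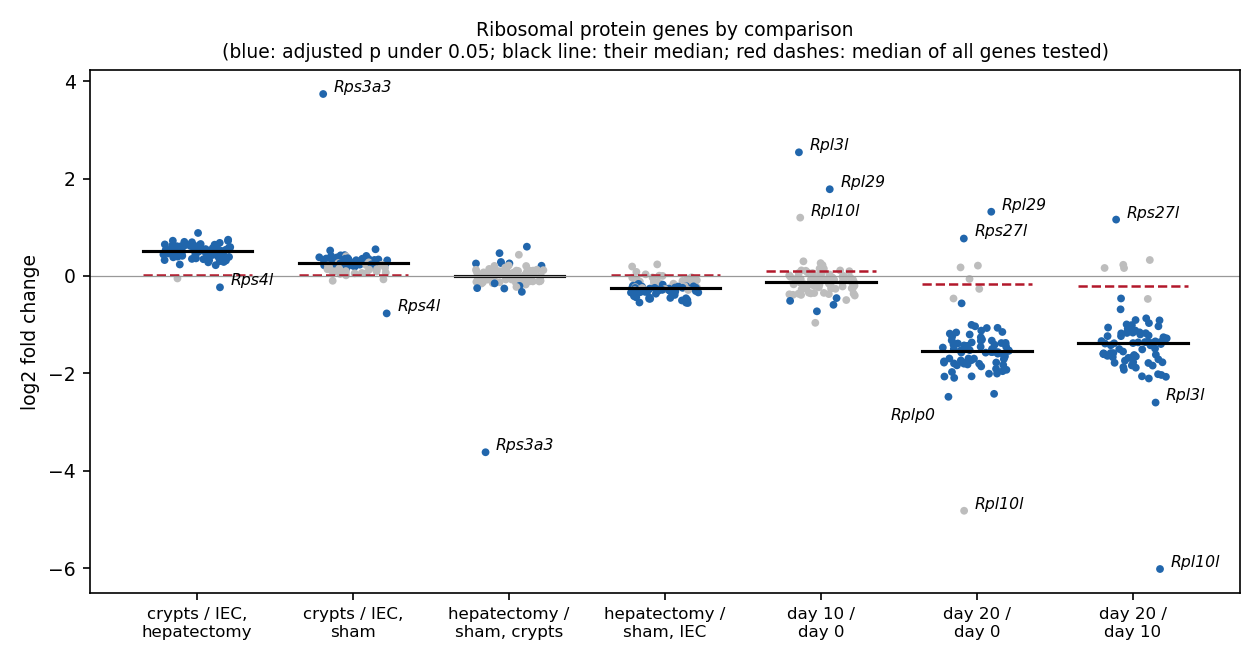
Log2 fold change of each member that passed the filter in 7 comparisons (points; blue where adjusted p is under 0.05), with the members' median (black) and the median of all genes tested (red dashes). Members lie near 0.51 for crypts against IEC after hepatectomy and near -1.53 for day 20 against day 0, and Rps3a3, Rps4l, Rpl29 and Rps27l stand outside the family; Rpl3l and Rpl10l rest on few counts.

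Rplp0 (chromosome 5, 115559467 to 115563727) fell most among members of at least 5 CPM. It had 2128, 1597 and 1507 CPM at day 0, 1393, 1475 and 1162 CPM at day 10, and 322, 304 and 310 CPM at day 20. The day 20 libraries lay below all others, 5.58-fold under day 0 (-2.48 ± 0.22, adjusted p = 2.7e-07). Rpl3 (chromosome 15, 80077791 to 80091868), a protein near the peptide-transfer centre, had 44.7, 42.7 and 42.9 CPM at day 20 against 280, 212 and 205 CPM at day 0, without overlap (-2.42 ± 0.18, adjusted p = 3.9e-08). Rps12, Rps20, Rpl12 and Rps15a followed, at 4.02-fold to 4.26-fold lower. Against day 10 the largest falls were Rplp0, Rpl10a, Rps12, Rpl3, Rpl12 and Rps4x, at 3.80-fold to 4.30-fold lower. Rps6, the S6 kinase substrate, was close to the family's median at -1.53 ± 0.18 (adjusted p = 5e-06), with 64.3, 66.3 and 65.8 CPM at day 20 and 225, 171 and 173 CPM at day 0. Rps19, the gene most often mutated in human Diamond-Blackfan anaemia, had -1.79 ± 0.21 (adjusted p = 5.2e-06).

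Rps27l (chromosome 9, 66946086 to 66949516) went the other way. It had 279.7, 210 and 211 CPM at day 0, 184, 203 and 148 CPM at day 10, and 383, 403 and 407 CPM at day 20. The day 20 libraries were above all others. The log2 fold change was 0.77 ± 0.18 against day 0 (adjusted p = 0.0016) and 1.16 ± 0.18 against day 10 (adjusted p = 6.8e-05). With total counts the values were -0.13 (adjusted p = 0.46) and 0.23 (adjusted p = 0.2), while the median of all genes was at -1.07 and -1.17. Per kilobase of transcript Rps27l ranked 2 among the members at day 20, with 692 ± 22.1 CPM per kilobase, and 30 at day 0, with 406 ± 69.5 CPM per kilobase (SD, n = 3 each). Rplp1 led at day 20 with 1046 ± 52.0 CPM per kilobase.

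A few members fell less than the family or showed no call at day 20. Rpl35a had 64.1, 65.7 and 63.5 CPM at day 20 and 68.4, 50.7 and 52.0 CPM at day 0, with overlapping libraries (0.18 ± 0.21, adjusted p = 0.47), although with total counts it stood at -0.72 (adjusted p = 0.00098). Rps4l was at -0.27 ± 0.16 (adjusted p = 0.14) and passed only when day 0 and day 20 were fitted alone (-0.35, adjusted p = 0.011) or with total counts (-1.16, adjusted p = 8.1e-05). Rpl10 had -0.46 ± 0.20 (adjusted p = 0.056) and passed without day 0 replicate 2 (adjusted p = 0.048) or replicate 3 (adjusted p = 0.046), with no filter (adjusted p = 0.03), with days 0 and 20 fitted alone (adjusted p = 0.0022) and with total counts (-1.36, adjusted p = 1e-05). Rpl7l1 fell by 0.56 ± 0.16 (adjusted p = 0.0077), and its parent Rpl7 by 1.70 ± 0.19 (adjusted p = 2.9e-06). Rpl22l1, a paralog that can stand in for Rpl22, fell by 1.73 ± 0.22 (adjusted p = 1e-05). Rpl10l, a testis paralog of Rpl10, was at 0 counts in every day 20 library, and Rpl3l, Rpl10l and Rps27 had under 4 CPM throughout.

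**Figure D5:**
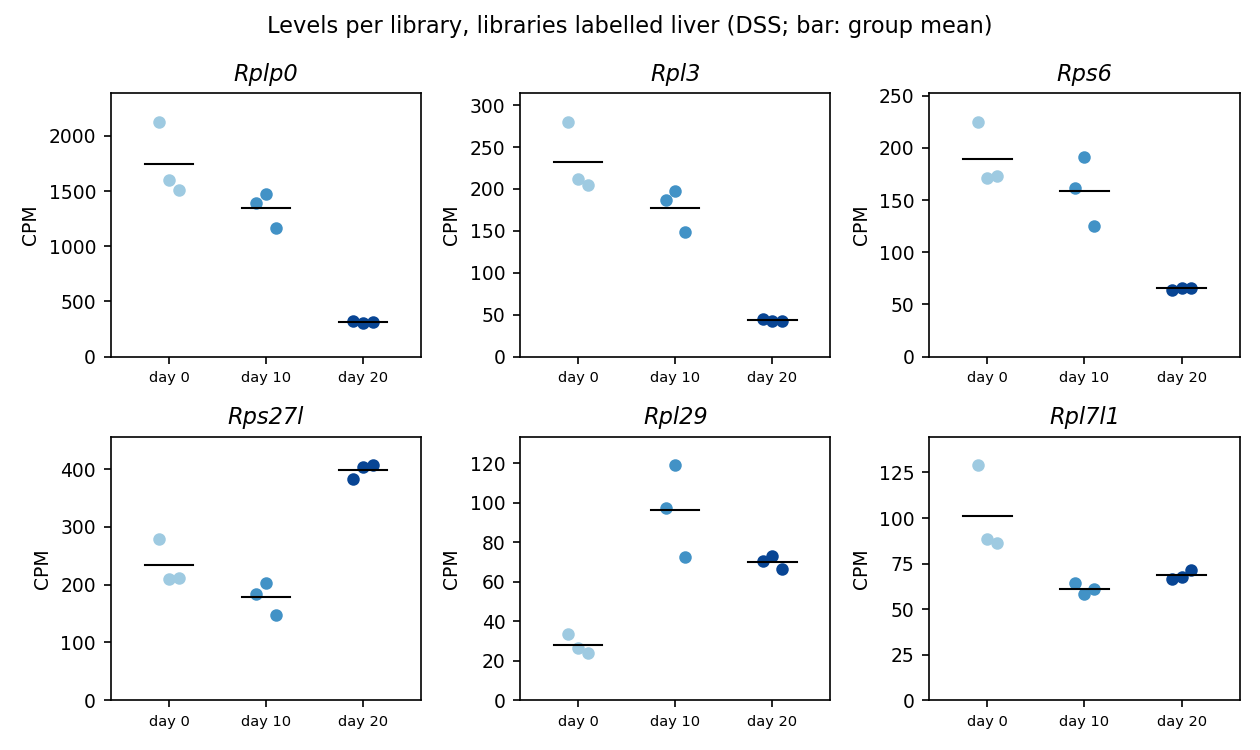
CPM after TMM scaling in each library labelled liver (points) at DSS day 0, 10 and 20 (n = 3 each), with the group mean (bars). Rplp0, Rpl3 and Rps6 are lowest at day 20, Rps27l is highest there, Rpl29 is lowest at day 0, and Rpl7l1 is highest at day 0.

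Around these members, 39 of 44 biogenesis genes fell at day 20 against day 0 and none rose, with a median of -1.57, where 38.1% of all genes fell and 33.3% rose, with a median of -0.16. Nop58 (-2.87 ± 0.17, adjusted p = 4.5e-09) and Fbl (-2.45 ± 0.16, adjusted p = 1.1e-08), both parts of box C/D snoRNA particles, were among them. Of 9 snoRNA host genes 8 fell and none rose, with a median of -1.50. Of 37 translation factors 26 fell and 4 rose. Of 77 mitochondrial ribosomal protein genes 31 fell and 5 rose (40.3% and 6.49%), with a median of -0.18, near that of all genes. Against day 10, 9 of them fell and 31 rose (11.7% and 40.3%), where 40.3% of all genes fell and 30.8% rose. Of 20 regulators 9 rose and 6 fell. Myc fell by 4.41 ± 0.20 (adjusted p = 4.7e-10) and Trp53 by 2.59 ± 0.17 (adjusted p = 1.6e-08). Among ribosomal proteins outside the symbol rule, 4 of 6 fell, Rpsa by 1.93 ± 0.23 (adjusted p = 5.4e-06). At day 10 against day 0, 24 of the 44 biogenesis genes fell and 1 rose, Mdn1 (1.08 ± 0.19, adjusted p = 0.0023), named after its value was seen. Of the 77 mitochondrial ribosomal protein genes 48 fell and none rose, where 18.8% of all genes fell and 24.7% rose. Cycling markers summed to 969 to 989, 529 to 794 and 22.1 to 24.2 CPM at day 0, 10 and 20, and crypt stem cell markers to 7330 to 8132, 3572 to 5517 and 89.8 to 111 CPM.

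Promoter letters were read as a description of the family. RefSeq promoters of 300 bases (250 before and 50 from the start, GRCm38.p6) matched 63 members with 75 entries, some of which overlap. On either strand, CTTTCC, part of a pyrimidine tract, stood in 48.0% of these entries and in 26.6% of all 32851 promoters. The ETS-type motif CCGGAAG stood in 34.7% and 8.86%, the YY1 motif AAGATGGC in 10.7% and 2.75%, GCGCATGC (an NRF1-type motif) in 4.0% and 2.71%, and TATAAA, the letters of a TATA box, in 10.7% and 13.6%. Within 15 bases of the start and on the strand of the gene, CTTTCC stood in 13.3% of the members' entries and in 1.42% of all promoters. The medians below split members by a match anywhere in the 300 bases, on either strand. At day 20 against day 0, the 31 members with CTTTCC had a median of -1.46 and the 31 without it -1.55. With CCGGAAG, 24 members had -1.42, and 38 without it had -1.59. With AAGATGGC, 6 members had -1.01, and 56 without it had -1.53. With GCGCATGC, 3 members had -1.93, and 59 without it had -1.52. With TATAAA, 8 members had -1.52, and 54 without it had -1.53. Windows from 30 bases before to 30 from the RefSeq start, with the searched motifs in capitals, are shown for Rplp0, Rps12, Rpl12 and Rps15a, 4 of the 6 largest falls at day 20 against day 0, and for Rps27l, which rose against both earlier days. In this order the windows are chr5:115559437-115559496 (plus strand), chr10:23787180-23787239 (minus strand), chr2:32961682-32961741 (plus strand), chr7:118116118-118116177 (minus strand) and chr9:66946056-66946115 (plus strand).
Rplp0: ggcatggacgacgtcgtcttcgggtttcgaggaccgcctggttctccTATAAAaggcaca
Rps12: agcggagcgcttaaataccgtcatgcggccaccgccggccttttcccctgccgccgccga
Rpl12: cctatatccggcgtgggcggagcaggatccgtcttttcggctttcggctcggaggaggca
Rps15a: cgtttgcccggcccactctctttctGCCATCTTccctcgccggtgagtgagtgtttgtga
Rps27l: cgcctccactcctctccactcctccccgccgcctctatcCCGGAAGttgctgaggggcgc

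The Rplp0 window holds the letters TATAAA downstream of the start, that of Rps15a the YY1 motif on the opposite strand and that of Rps27l the ETS-type motif. The windows of Rps12 and Rpl12 hold none of the letters searched. A match is a description of these letters.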

How the data were processed

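RNA was measured by bulk sequencing of standard Illumina libraries, per the labels' protocols. The submitters' processing notes name STAR, Partek and the build mm10, without versions or order. For the intestine the authors deposited expected counts (estimated counts per gene symbol, 36.7% of values not whole), which were rounded here. For the samples labelled liver they deposited whole-number counts by numeric identifier. Of 24594 identifiers 24570 (99.9%) matched a symbol, and the 24 others held 3.93 to 22.1% of a library's counts. No source used here states how strand was handled.

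Each kind of table was fitted once over all its groups with edgeR 4.0.16 in R 4.3.3, with TMM scaling, filterByExpr (minimum count 10, minimum total 15) and Benjamini-Hochberg adjustment over all genes tested. DESeq2 1.42.0 was an alternative, as were other scalings, filters, sets of samples, a replicate block, sums with -ps copies, a 1.5-fold rule and leaving out each library. The smallest total was 12742629 counts (day 10 replicate 3), which limits precision most at that time. CPM are TMM-scaled, and log2 fold changes carry their SE. Scripts were tested on simulated data.

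Members and lists were chosen with earlier results of these data known. In each comparison the 6 largest called rises and the 6 largest called falls among members of at least 5 CPM could be named, besides paralogs with their parents, stalk proteins, Rpl5, Rpl11, Rps6, Rps19, Rpl38 and Rps14, and up to 4 genes a list by smallest p. Rpl35a, Rpl26 and, at day 20 against day 10, Rpl29 were named after their values were seen. The lists are ribosomal proteins outside the rule, mitochondrial ribosomal proteins, ribosome biogenesis and RNA polymerase I, translation factors, snoRNA host genes and regulators of ribosomal protein synthesis. Shared stretches and coding sequences come from GENCODE vM21 and promoters from RefSeq. Single values of some members are not reported here.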

Additional observations from a re-analysis of the deposited data

Results flagged for a closer look

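The hepatectomy effect differed between crypts and IEC for several members, by the interaction term of the same fit (edgeR's quasi-likelihood test, Benjamini-Hochberg over all genes). As a signed log2 value it was larger in crypts for 20 members and smaller for 1, Rps3a3, which fell more in crypts than in IEC. Rps3a1 (0.712), Rps4l (0.536), Rpl29 (0.474), Rpl10 (0.473), Rps27a (0.452) and Rpl22l1 (0.435) had the largest positive differences on the log2 scale, and Rps3a3 (-3.18) the negative one. Rps3a1 and Rps3a3 are near-identical copies, and whether counts shifted between them was not tested. The calls of Rpl10 and Rps27a were each lost in 5 of the 8 fits that leave out a library, and that of Rpl22l1 in 2. Without hepatectomy crypt replicate 1 Rpl10 was at 0.374 (adjusted p = 0.1) and Rps27a at 0.272 (adjusted p = 0.1), and without hepatectomy IEC replicate 1 Rpl22l1 was at 0.378 (adjusted p = 0.056).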

How the results depend on the processing

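Of 1514 values for single members under the alternatives, 1350 kept direction and call, 126 lost the call, 23 gained it and 15 changed direction; the cause was not tested.

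With total counts in place of TMM, hepatectomy against sham in crypts gave 0 rises, 68 falls and a median of -0.32, with Rpl32 at -0.0368, Rpl29 at -0.0581 and Rps4l at -0.0677. In IEC 82 fell with a median of -0.46, and the effect was larger in crypts for 5. Crypts against IEC had medians of 0.623 in sham mice (Rps3a1 0.285) and 0.761 after hepatectomy, where 0 were lower (Rps4l 0.0155, Rps27l 0.197). At day 10 against day 0, 1 member rose. At day 20 against day 0, 1 rose with a median of -2.43 (Rps27l -0.13, Rpl35a -0.723), and against day 10, 0 rose with a median of -2.28 (Rpl35a -0.725, Rps4l -0.618, Rpl7l1 -0.801).

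DESeq2 and RLE size factors each gave a median of 0.25 for crypts against IEC in sham mice, no filter 0.308 and the groups compared alone 0.23, with 2 lower; at day 20 against day 10 that fit had 2 rises. With no filter, 17 fell after hepatectomy in crypts, the effect was larger in crypts for 52, Rps27l was at 0.00656 for crypts against IEC after hepatectomy, and 1 rose and 11 fell at day 10 against day 0. A stricter filter (1 CPM throughout a group, 5 CPM on average over the table) gave 1 rise in IEC, 12 larger effects, 2 lower in crypts than in IEC after hepatectomy, 1 rise and 2 falls at day 10 against day 0, a median of -1.33 at day 20 against day 0 and 2 rises at day 20 against day 10. Summed with -ps copies, 35 fell after hepatectomy in IEC, with a median of -0.177. In crypts that setting gave 13 rises and 2 falls (Rpl23a 0.0176, Rps7 0.211). Under the 1.5-fold rule these counts were 1 and 1, 0 fell in IEC, 1 effect was larger, 1 was higher in sham crypts, 24 were higher and 0 lower in crypts after hepatectomy, and 2 fell at day 10 against day 0.

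The share of counts without mitochondrially encoded genes was 1.67% in hepatectomy IEC, 3.23% in sham crypts and 2.26% in sham IEC. With -ps copies it was 3.53% in hepatectomy crypts, 4.19% in sham crypts, 2.13% in hepatectomy IEC, 2.72% in sham IEC, 3.05% at day 10 and 0.623% at day 20. The alternative without mitochondrial genes was not run for the libraries labelled liver, whose identifiers matched no such gene.

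Leaving out single libraries gave 4 to 17 rises and 3 to 18 falls after hepatectomy in crypts, 26 to 60 falls in IEC, 9 to 51 larger effects, 33 to 44 higher in sham crypts with medians of 0.239 to 0.271, 0 to 1 lower in crypts after hepatectomy, 1 to 4 rises and 2 to 9 falls at day 10 against day 0, and 1 to 2 rises at day 20 against day 10, where Rpl35a ranged from -0.0466 to 0.421. Where this left 1 sample in a group, it was assumed to vary like the other groups.

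Deviations of same-numbered libraries correlated at -0.0161 to 0.028 in the intestine and at -0.0301 to 0.0421 in the libraries labelled liver. Differently numbered libraries gave -0.0506 to 0.0316 in the latter. In the intestine they gave the same values with the sign reversed (-0.028 to 0.0161), and so no separate comparison. Whether same-numbered libraries came from the same mouse therefore cannot be decided from these correlations. With a replicate block 7 rose and 5 fell after hepatectomy in crypts, 49 fell in IEC, 15 effects were larger and 1 smaller, 54 were higher in sham crypts and 82 in hepatectomy crypts, and at day 20 against day 0, 75 fell.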
